A study of Homo sapiens with 5 samples.

Results

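The mitochondrial genome of HUDEP-2 cells carried 94 of the 28283 called start sites of nascent RNA in the deposited lists, with 49 forward and 45 reverse calls. The members are all calls placed on this genome, set on its 37 annotated genes and its control region. HUDEP-2 is an immortalised human erythroid progenitor line, and the assay was PRO-seq, in which engaged RNA polymerases of isolated nuclei add biotin-labelled CTP and UTP to the RNA they hold. The series comprises 5 libraries of this line. In 3 of them the cells were clones, each grown from 1 cell after editing the BCL11A enhancer with sg1617. One clone had gained 1 bp, the next had lost 13 bp and the last 15 bp, and each edit is therefore known from 1 clone. The other 2 libraries were wild-type cells. The lists come from 1 alignment named for the line, a name that matches no sample title, so which of the 5 libraries the calls stand for is unknown. They hold no value per library, so clones and wild-type cells were not compared. How many reads support a call is unknown.

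Human mitochondrial DNA is a small circle transcribed along nearly its whole length on both strands by POLRMT, a single-subunit RNA polymerase, with the factors TFAM and TFB2M. The promoters lie in the control region, a stretch without genes between MT-TP and MT-TF. Transcription of one direction runs first through the rRNA genes and on through most protein-coding and tRNA genes, here the forward strand, and transcription of the other runs the opposite way through MT-ND6 and several tRNA genes. The long transcripts are cut at the tRNAs that lie between the other genes, so that a mature RNA has its 5′ end at a gene boundary without a promoter there. The genome encodes subunits of the respiratory chain and the rRNAs and tRNAs that translate them.

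Nuclear genes of this machinery had called starts in the same lists, and the starts of 3 of them are shown because POLRMT, TFAM and TFB2M form the initiation apparatus. No mitochondrial sequence was used here. Each line gives 60 bases before the call and 20 from the call on, 5′ to 3′ on the strand of the gene, from RefSeq (GRCh38.p14). The single capital letter is the called base. The run of capitals, where there is one, marks matches to GCATGCG or to its other strand, CGCATGC, which overlap each other there. POLRMT is shown at chr19:633512-633591 (reverse strand, call at 633531), TFAM at chr10:58385352-58385431 (forward strand, call at 58385412) and TFB2M at chr1:246566242-246566321 (reverse strand, call at 246566261).
POLRMT: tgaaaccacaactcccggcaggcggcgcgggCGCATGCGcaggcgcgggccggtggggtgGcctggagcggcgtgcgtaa
TFAM: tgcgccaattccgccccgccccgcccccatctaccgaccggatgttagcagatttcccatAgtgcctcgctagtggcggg
TFB2M: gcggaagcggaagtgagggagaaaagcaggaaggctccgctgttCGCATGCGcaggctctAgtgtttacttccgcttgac

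The letters GCATGCG form the core of the site of the nuclear respiratory factor NRF1. They were found on either strand in the windows of 4 of 31 list members with a promoter sequence (12.9%), POLRMT, TFB1M, TFB2M and MTPAP, against 1362 of 34961 promoter windows of the whole genome (3.90%). Each window runs from 250 bases before to 50 bases after the annotated start. A match is a description of the letters and was not tested as a binding site.

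The control region spans 576 bp before MT-TF and 546 bp after MT-TP, which meet where the circle is opened for the reference sequence. It held 7 calls, 3 forward at 1, 561 and 16106 and 4 reverse at 72, 406, 16182 and 16569. The forward call at 561 lay 16 bp before the first base of MT-TF, the phenylalanine tRNA gene that opens the forward transcript. The reverse call at 406 lay 155 bp to its left, so the calls at 406 and 561 point away from each other. The region between MT-TP and the rRNA genes is where the promoters of both strands are known to lie. The reverse call at 406 was followed on its transcript by that at 72, and then, across the join, by those at 16569 and 16182.

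The outermost calls sat on the first and the last base of the opened circle, a forward call at 1 and a reverse call at 16569. Counted around the circle, the reverse calls at 16569 and 72 were 72 bp apart, whereas no other neighbours on a mitochondrial strand were closer than 252 bp. Reads that cross the join cannot be placed in 1 piece on an opened reference. Its part in these calls was not tested.

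**Figure D1:**
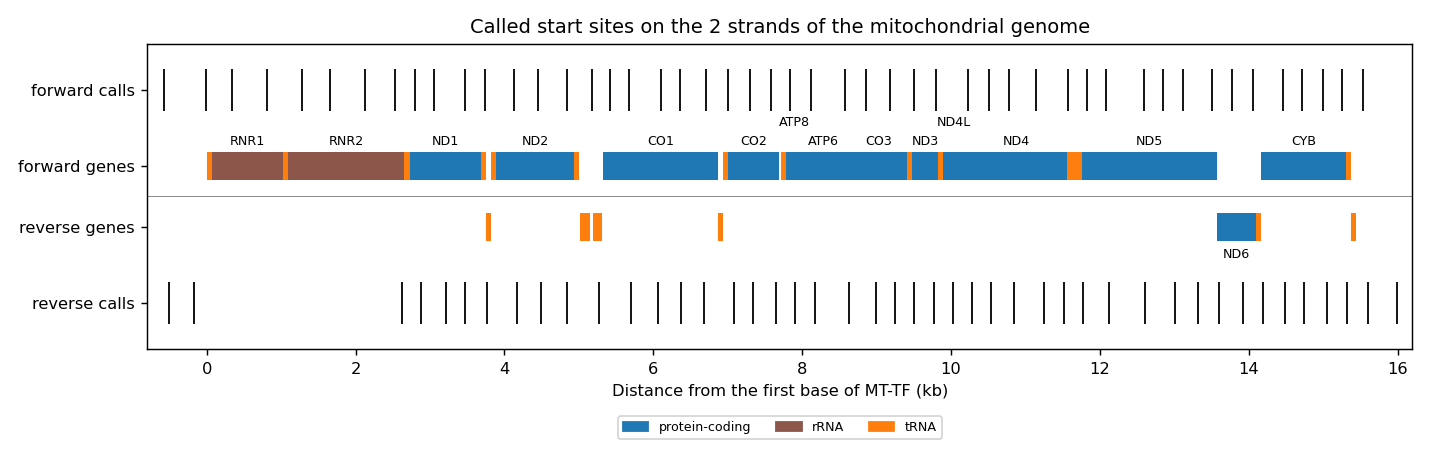
Map of the mitochondrial genome with the distance from the first base of MT-TF in kb on the x axis. Vertical lines are calls, forward above and reverse below, and boxes are genes on their coding strand, coloured by class. Calls ran along both strands at close spacing except on the reverse strand over the rRNA genes, where 2796 bp held no call.

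The rRNA genes stood on a stretch where the strands differed. MT-RNR1, the small-subunit rRNA gene (648 to 1601), had forward calls at 913 and 1392, and MT-RNR2, the large-subunit rRNA gene (1671 to 3229), at 1863, 2227, 2707 and 3108. On the opposite strand MT-RNR1 had 0 calls and MT-RNR2 had 1, at 3202 near its 3′ end. The longest gap between reverse calls ran from 406 to 3202 and held MT-TF, MT-RNR1 and MT-TV whole, with 7 forward calls opposite it. The 43 other gaps between reverse calls were 252 to 478 bp long, so this gap exceeded the next longest by far. The rRNA genes had 2.39 forward and 0.398 reverse calls per kb.

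The protein-coding genes held most of the calls, and both of their strands were called alike. Their 11341 bp carried 36 forward and 37 reverse calls, 3.17 and 3.26 per kb. Over the 13 genes 36 calls lay on the coding strand and 37 on the opposite strand, a coding share of 49.3% (Wilson 95% interval 38.2 to 60.5%). Every one of the 13 had a call on the opposite strand, and 12 had one on the coding strand. Over all 37 genes the coding share was 54.7% (44.2 to 64.7%), 47 of 86 calls, an interval that holds an even split. Intervals here cover counting over calls only, which are not replicates.

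Complex I, the NADH dehydrogenase that feeds electrons into the chain, takes 7 subunits from this genome, and their genes had 20 coding-strand and 21 opposite calls. MT-ND1 had forward calls at 3373, 3634 and 4048 and reverse calls at 3457, 3786 and 4048. MT-ND2 had forward calls at 4704, 5030 and 5418 and reverse calls at 4743, 5063 and 5416. In MT-ND2 each forward call had a reverse call within 39 bp, and in MT-ND1 calls of both strands lay on base 4048, whereas the forward call at 3634 was 152 bp from the nearest reverse call. MT-ND3 also had neighbouring calls at its start, with a forward call at 10079 and a reverse call at 10078, and had a further pair at 10375 and 10346.

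MT-ND4 and MT-ND5, the longest complex I genes, had 4 and 6 forward and 5 reverse calls each. MT-ND4L, which overlaps the start of MT-ND4, had no forward call and a single reverse call at 10606, and was the protein-coding gene without a coding-strand call. MT-ND6 is the only protein gene coded on the reverse strand. It had reverse calls at 14181 and 14503 and forward calls at 14349 and 14636, so its coding strand was called no more often than the other.

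Complex IV, cytochrome c oxidase, has its catalytic core in MT-CO1, MT-CO2 and MT-CO3, which together had 9 coding-strand and 10 opposite calls. MT-CO1 held forward calls at 6002, 6254, 6677, 6935 and 7289 and reverse calls at 6280, 6641, 6947 and 7261. MT-CO2 held forward calls at 7881 and 8163, and a call at 7585 lay on the last base of MT-TD, 1 bp before the first base of MT-CO2. This was the nearest call to any gene start in the genome. MT-CO3 held forward calls at 9429 and 9764 and reverse calls at 9209, 9566 and 9825.

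The other protein genes followed the same spacing. MT-CYB, the cytochrome b gene of complex III, held forward calls at 15034, 15295, 15574 and 15835 and reverse calls at 14765, 15063, 15325 and 15633. From 15034 on, each forward call of MT-CYB was followed by a reverse call within 63 bp, the last of them at 15898 in MT-TT. MT-ATP8 and MT-ATP6, overlapping genes of the ATP synthase, held forward calls at 8419 and at 8700 and 9150, and reverse calls at 8485 and 8744.

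Of the 22 tRNA genes, which are 59 to 75 bp long, 6 held a call and 16 held none. MT-TI, MT-TQ, MT-TY, MT-TD and MT-TH held 1 call on the coding strand and MT-TT held 1 on the opposite strand. The tRNA genes had 3.99 calls per kb (interval 1.83 to 8.68), the control region 6.24 (3.03 to 12.8), the protein-coding genes 6.44 (5.12 to 8.08) and the rRNA genes 2.79 (1.35 to 5.74). The intervals of the tRNA genes and the control region overlap those of all other classes. Those of the rRNA and protein-coding genes also overlap each other, and no test was made. The intervals take bases as independent, although neighbouring calls of a strand were at least 252 bp apart along the opened sequence. Forward calls per kb were 2.39 in rRNA and 3.17 in protein-coding genes, and reverse calls 0.398 and 3.26. The difference thus lay mostly on the reverse strand.

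Gene starts were called about as often as any position of the genome. A coding-strand call lay within 50 bp of the start of 9 of 37 genes, or 24.3% (13.4 to 40.1%), while 29.6% of forward-strand positions and 27.1% of reverse-strand positions had a call of their strand as near. The 9 were MT-TF, MT-TC, MT-TY, MT-CO2, MT-ND3, MT-TR, MT-ND4, MT-TH and MT-TE. They comprised 6 of 22 tRNA genes, 3 of 13 protein-coding genes and 0 of 2 rRNA genes. MT-TC and MT-TY, neighbours on the reverse strand, shared the call at 5854.

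The nearest call lay a median of 87 bp from a gene start, with a range of 1 to 210 bp. Within 25 bp 5 genes were called (13.5%, against 14.6% of positions weighted by coding strand). Within 100 bp it was 25 genes (67.6%, against 57.6%). At neither width did the share of starts lie far from that of all positions, so the count of starts says nothing particular about them.

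**Figure D2:**
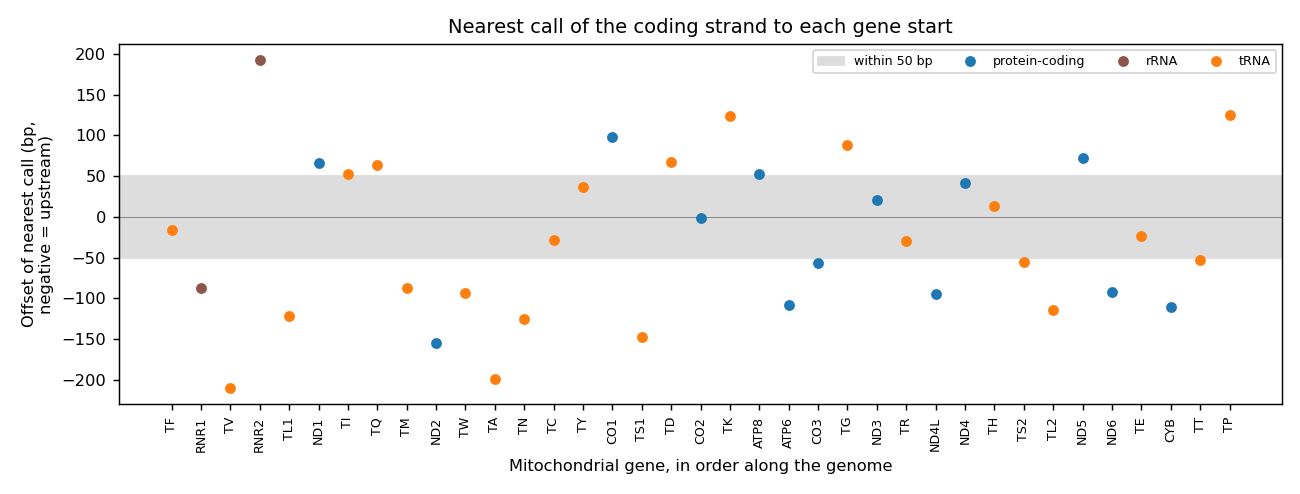
Offset in bp of the nearest coding-strand call from the start of each of the 37 genes, in order along the genome, with negative values upstream. The grey band marks 50 bp on either side, within which 9 genes lie, from -30 bp at MT-TR to 41 bp at MT-ND4.

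Calls were closely spaced outside the long reverse-strand gap. The median gap to the next call on the strand was 296 bp for forward calls (quartiles 266 and 392 bp, 48 gaps) and 307 bp for reverse calls (262 and 358 bp, 44 gaps). The largest forward gap was 560 bp, between the calls at 1 and 561, and the next largest was 499 bp. The largest reverse gap was 2796 bp and the next largest 478 bp. In the mitochondrial genome 97.8% of gaps were at most 500 bp, against 12.2% on chromosomes 1 to 22 and X. Among nuclear gaps of that size the median was 341 bp.

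Gaps of at most 300 bp made up 48.9% of the mitochondrial gaps. The smallest mitochondrial gap was 252 bp on both strands, and the smallest nuclear gap was 206 bp. Whether the caller sets a least distance between calls is not given in the sources used here, so these gaps may not be the spacing of RNA 5′ ends.

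Pairs of calls were oriented differently on the mitochondrial and the nuclear chromosomes. At nuclear promoters, calls of the 2 strands typically lie back to back and point apart. Such a divergent pair, with a reverse call 0 to 1000 bp to the left of a forward call, was found for 44 of 49 mitochondrial forward calls (89.8%, interval 78.2 to 95.6%) and for 57.8% of 14057 nuclear ones. However, 88.7% of all mitochondrial positions had a reverse call in that window, so the share is the one that the density of calls gives. The 5 forward calls without such a partner were those at 1 and, inside the long reverse gap, at 1863, 2227, 2707 and 3108. Calls and positions were both counted along the opened sequence, so partners across the join were left out. Around the circle, the reverse call at 16569 lies directly before the forward call at 1, which is therefore unpaired only because the circle is opened.

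Within 100 bp, mitochondrial calls of the 2 strands faced each other more often than they pointed apart. A reverse call 0 to 100 bp to the right of the forward call, so that the calls point at each other, was found for 27 of 49 mitochondrial forward calls, or 55.1% (41.3 to 68.1%). Of all mitochondrial positions, 27.3% had a reverse call there. On chromosomes 1 to 22 and X it was 143 of 14057 forward calls, or 1.02% (0.864 to 1.20%). A reverse call 0 to 100 bp to the left was found for 16.3% of mitochondrial forward calls, against 26.8% of mitochondrial positions, and for 10.3% of nuclear forward calls. The facing window was chosen after the values were seen.

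Beyond the start of reverse calls at 3202, the nearest reverse call lay to the right of 31 of 41 forward calls, on the same base for 1 and to the left for 9. The median distance from these forward calls to the next reverse call was 66 bp, with quartiles at 39 and 154 bp and a range of 0 to 436 bp. On the nuclear chromosomes the nearest reverse call within 500 bp lay to the left of 85.7% of 8514 forward calls, with a median offset of -144 bp. The difference in orientation has no replicate, since the lists come from 1 alignment, and no test was made.

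**Figure D3:**
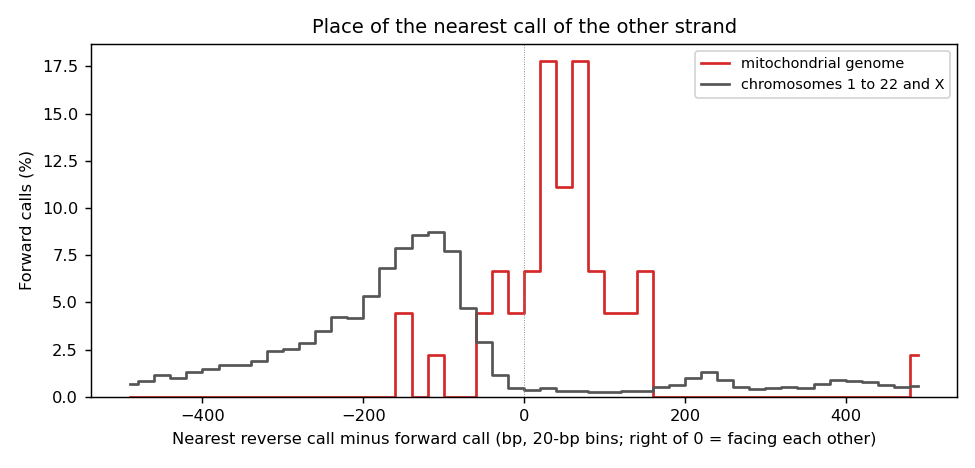
Distribution of the offset in bp from each forward call to the nearest reverse call, in bins of 20 bp, as a percentage of forward calls with a reverse call within 500 bp. The mitochondrial curve lies mostly right of 0, where the calls face each other, and the nuclear curve mostly left of 0, where 85.7% of its calls lie.

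The identifiers of the calls carried an order that differed from their position. Each call has a running number, and 93.5% of neighbouring nuclear calls were numbered in the order of their position. The exceptions, 1837 of 28113 neighbours, all lay at most 734 bp apart. In 73 nuclear runs of 3 or more calls with interleaved numbers and 1 call at an annotated start, the call at the start had the lowest number in 51 (69.9%), while it was the most upstream call in 36 (49.3%) and made up 26.9% of the calls. What the numbers rank is not given in the sources used here, and they were not taken as read counts.

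On the mitochondrial forward strand the lowest 8 places all fell to the calls from 1 to 3108, that is the control region and the rRNA genes. The call at 1 came first, then that at 2707 in MT-RNR2 and then that at 561, next to MT-TF. On the reverse strand the call at 406 came first, followed by those at 72, 16569 and 14765, all but the last of them in the control region. That the calls at 406 and 72 came before the other reverse calls may follow from their position alone, since numbers of separate runs follow position. The same holds for the 8 forward calls from 1 to 3108 as a set, and for the call at 1 among them. It does not hold for the call at 406 coming before that at 72, an order that goes against position.

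Beyond 3202 the place rose with the distance travelled from the control region on either strand. Among the 41 forward calls, which are transcribed to the right, the median place was 19.5 up to MT-CO1, 23 in MT-CO1 to MT-CO3, 27 in MT-TG to MT-TL2 and 39 from MT-ND5 on. Among the 43 reverse calls, transcribed to the left, the median place was 10.5 from MT-ND5 on, 22.5 in MT-TG to MT-TL2, 30 in MT-CO1 to MT-CO3 and 38 between 3202 and MT-CO1. The order of the segments was thus turned round between the strands. On the forward strand distance travelled rises with position, and 93.5% of neighbouring nuclear calls were numbered in the order of position. The forward rise can therefore not be told apart from numbering by position. Spearman's rho between distance along the transcript and place was 0.58 over 41 forward and 0.686 over 43 reverse calls, which share 1 list, 1 alignment and 1 caller.

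**Figure D4:**
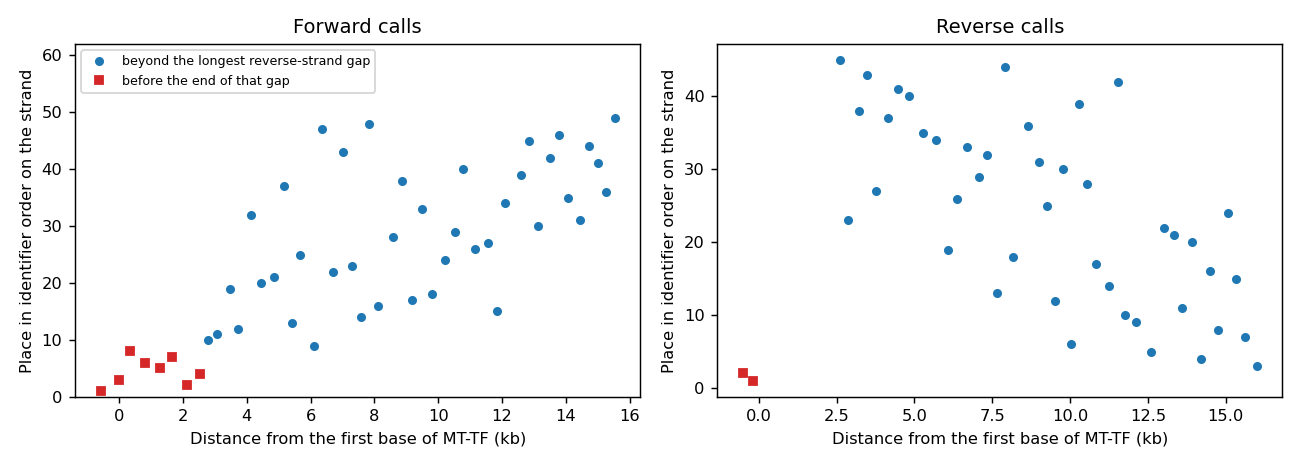
Place of each call in the identifier order of its strand against the distance from the first base of MT-TF in kb, forward calls left and reverse calls right. Red squares are calls before the end of the longest reverse-strand gap, which hold the lowest places on both strands. Beyond it the place rises to the right on the forward strand and falls to the right on the reverse strand.

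Nuclear copies of mitochondrial genes bear on how far these calls can be placed, since reads that fit both a copy and the original may be put in either. Of 466 annotated pseudogene copies on chromosomes 1 to 22 and X, 21 held a call (4.51%, interval 2.97 to 6.79%), against 1.74% of 16001 other pseudogenes. They held 34 calls, 15 forward and 19 reverse, of which 12 lay on chromosome 1 and 12 on chromosome 5. Of the 21 copies, 7 lay on chromosome 1 and 6 on chromosome 5, most of them neighbours in the blocks described next. Copies in the same block are not independent, which the interval does not take into account.

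The chromosome 1 calls lay mostly in a block of 5861 bp (629062 to 634922) that runs from MTND1P23 to MTCO3P12, a copy of a stretch that begins in MT-ND1 and ends in MT-CO3. It had 5 forward and 6 reverse calls, and for 3 of the 5 forward calls, at 629930, 630302 and 634021, a reverse call followed 34, 39 and 34 bp to the right. A block of 4734 bp on chromosome 5 (134923303 to 134928036) from MTCYBP18 to MTND4P12 had 6 forward and 4 reverse calls. There the reverse calls followed 53, 57 and 38 bp to the right of 3 forward calls, at 134924570, 134927030 and 134927768. The blocks thus held facing pairs for 3 of 5 and 3 of 6 forward calls, against 1.02% of all nuclear forward calls. The share of block positions with a reverse call as near was not counted. Among the other copies with a forward call, MTCO1P2 held a facing pair, whereas MTND6P22, MTND2P13 and MTCYBP31 held no reverse call. Reads may be shared with the mitochondrial genome, so these pairs cannot be taken as a separate instance of the arrangement.

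The place of some copy calls was set beside the mitochondrial calls of the same strand. By its offset inside MTND2P28, the copy of MT-ND2, the forward call at 629930 matches mitochondrial position 4760, and the nearest forward mitochondrial call lay at an offset of -56 bp. In the copies of MT-ND2, MT-CO1, MT-ATP8 and MT-ATP6, all on chromosome 1, 9 of the 34 calls were placed in this way. They lay 36 to 152 bp from the nearest mitochondrial call of the same strand. Those with offsets of -56, -51, 36 and -84 bp lay within 100 bp, and the others lay farther away. A call of the same strand was within 100 bp of 58.8% of forward-strand and 53.8% of reverse-strand mitochondrial positions. By this measure the copy calls lay no nearer than positions in general, so the distances show no match between copy and original calls. No alignment of the sequences was made. How reads were divided between copies and originals was not tested, so calls in both are uncertain.

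The nuclear genes that serve mitochondrial transcription and RNA processing were nearly all called. A promoter call lay within 500 bp of an end of 31 of 35 genes, against 42.2% of 19974 protein-coding genes. In the transcription group all 9 were called: POLRMT, the polymerase (offset 6 bp from the annotated end), TFAM, which packs and bends the DNA (2 bp), TFB2M, which opens the promoter (0 bp), TFB1M, an rRNA methyltransferase (24 bp), TEFM, the elongation factor (26 bp), and MTERF1 to MTERF4, the terminator family (-1 to 24 bp).

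In the replication group 5 of 7 were called, among them POLG, the DNA polymerase (9 bp), TWNK, the helicase (11 bp), and SSBP1, the single-strand binding protein (51 bp). MGME1, an exonuclease, and TOP1MT, a topoisomerase, were not. In or near its body, MGME1 held 1 forward and 3 reverse calls, and TOP1MT held 1 forward and 2 reverse calls. Of the 6 genes that cut transcripts or add ends, 5 were called, including ELAC2, which cuts tRNA 3′ ends (-9 bp), and TRMT10C and HSD17B10, partners in the enzyme that cuts tRNA 5′ ends (36 and 5 bp). PRORP, the nuclease of that enzyme, was not called, and held 1 forward and 2 reverse calls in or near its body.

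Of the 13 genes of RNA stability and decay, 12 were called, including SLIRP (32 bp), PNPT1, an RNA-degrading enzyme (-1 bp), and SUPV3L1, its helicase (12 bp). LRPPRC, the RNA-binding partner of SLIRP, was called 291 bp inside its annotated end, the farthest of the list. GRSF1, a protein of mitochondrial RNA granules, was not called and had 1 reverse call in or near the gene. Over the 31 called genes the call lay a median of 5 bp downstream of the annotated end, or 11 bp away regardless of direction, and 28 lay within 50 bp. These genes were kept for having a call within 500 bp.

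The labelled cell type was checked on a short list of markers. Of 10 erythroid markers, among them HBB, GATA1 and ALAS2, 10 were called, against 0 of 6 lymphoid, 1 of 6 myeloid (CEBPA), 0 of 5 megakaryocyte and 1 of 5 hepatocyte markers (TF). By the same rule 42.2% of 19974 protein-coding genes were called.

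How exactly a call marks the first base was examined at nuclear promoters, where sequence was at hand. At 4128 forward and 3935 reverse calls inside promoter windows, the called base was C in 48.8% and 50.1% and the following base was A in 49.3% and 50.4%. The base before the call was T in 47.2% and 45.7%. The profiles of the 2 strands match when the end coordinate is taken as the position, so no shift between strands shows. RNA polymerase II usually starts on a purine after a pyrimidine, and with C on about as many called bases as purines, a call can lie on the start or 1 base before it. The positions of the mitochondrial calls are therefore given as listed and may be off by 1 base.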

How the data were processed

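PRO-seq calls were taken from 2 BED lists, 1 per strand, recorded under no single sample. Per the file headers, calls came from TSScall in a mode named global on 1 sorted, de-duplicated HUDEP-2 alignment. Per the submitters' processing notes, the build was hg38 and the tools were deepTools 3.5.4, SAMtools 1.17, Picard and BWA 0.7.16a. For TSScall, neither the version nor the read minimum is stated. The score column deposited by the authors was 0 throughout, so depth is unknown. All calls are 1 base long and are given by their end coordinate.

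Gene bounds came from RefSeq (GRCh38.p14), which lists the 37 mitochondrial genes without the MT- prefix and without strand. Coding strands were taken from general knowledge, with the forward strand that of the reference sequence. The largest call position, 16569, was taken as the length of the genome. Nuclear promoter strands and sequences came from the RefSeq promoter windows. Nuclear genes counted as called when a call pointing into the gene lay within 500 bp of the left end (forward call) or of the right end (reverse call). Members, lists and windows were chosen with earlier results of these data known. All 37 genes, all members of the nuclear list and the nuclear copies with a call could be named, and cell type markers only as counts with called ones as examples. Shares carry Wilson 95% intervals, and no test was made, since no library has values of its own. Python 3.11.15 was used with scipy 1.17.1, pandas 2.3.3, matplotlib 3.10.9 and numpy 2.4.6, and the pair counts were tested on simulated data.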

Additional observations from a re-analysis of the deposited data

How the results depend on the processing

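Of 28 alternatives, 19 left their result within its interval or within 1.5 times its count, and 9 moved it. The number of mitochondrial gene starts with a call, 9, was 5 within 25 bp, 25 within 100 bp and 18 (48.6%) with a call of either strand, where 45.3% of all mitochondrial positions had one as near. Merging calls within 500 bp moved the median gap to 661.5 bp on the forward and 610.5 bp on the reverse strand and the density of protein-coding genes to 2.91 calls per kb; merging removes close calls by construction. Divergent pairs fell to 61.2% with a window of 250 bp, against 66.7% of mitochondrial positions. Facing pairs were 26.5% with 50 bp and 71.4% with 200 bp, against 13.9% and 53.8% of mitochondrial positions, and these windows were chosen after seeing the data, as were facing pairs beyond 3202 (61.0%) and the coding share of protein-coding genes alone. Taking the start coordinate as the position moved no result run with it. No paired analysis was possible because the lists hold no value per library, and for the same reason no library could be left out. Depth is unknown, so a stretch without calls is not shown to lack RNA.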
